A study of Homo sapiens with 16 samples.

Results

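Among the protein-coding genes of the HEK293T pseudouridine map, 273 had listed sites on both strands of the genome. They were chosen by the deposited gene identifier and strand alone: a gene entered when at least 1 of its sites lay on the plus strand and at least 1 on the minus strand. The 273 loci held 1112 sites, of 10559 in coding genes and 13398 in the whole map, and no member was removed by a filter. They were 11.3% of the 2426 coding genes with 2 or more sites, and 5226 coding genes had a site. The strand with fewer sites of a gene is called its rarer strand and the other its main strand. In 166 loci the rarer strand held 191 sites and the main strand 691, and the other 107 loci, with 230 sites, had equal numbers on both and are described apart as tied.

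Pseudouridine synthases convert uridine to its isomer after transcription, and PUS1, PUS7 and TRUB1 among them act at known sequence motifs. PRAISE-seq treats RNA with sulfite and bisulfite, which adds to pseudouridine, and reverse transcriptase then skips the modified base, so that the site is read as a deletion of a uridine. A deletion is assigned to an RNA only as well as its read is assigned to a strand, and coding loci can hold antisense transcripts, divergent transcripts from a shared promoter and overlapping neighbour genes.

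The study mapped pseudouridine in rRNA-depleted RNA of HEK293T, a human embryonic kidney cell line, and of HuCCT1, a human cholangiocarcinoma line. Its 16 libraries fell into 6 groups: HEK293T BSCtrl (2, bisulfite-treated) and nontreated-Ctrl (2), HEK293T BSPUS-TKO (3) and PUS-TKO (3), both lacking PUS1, PUS7 and RPUSD4, and HuCCT1 BS (3) and Input (3). The submitters describe the triple knockout as the negative control of the HEK293T map. The labels do not say whether the libraries came from separate cultures or whether the knockout is 1 clone. The site list has no column per library, so no value below has a replicate error. Intervals are 95% Clopper-Pearson intervals, which cover counting error only, and reads may include copies of 1 molecule.

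Each site is given with 5 bases on either side, 5′ to 3′ on its own strand, from the deposited table (build hg38), with the listed uridine as a capital T. The first set shows antisense sites with many pyrimidines around them, a feature given with its counts further on. The second set shows the 2 places where the windows of a plus-strand and a minus-strand site overlapped. Sense and antisense refer to the strand of the gene to which a site was assigned. The MLANA site lay downstream of MLANA, inside BRD10 and on the strand of BRD10. The TBC1D32 letters were also listed for another gene, MGA.
CELF1, antisense, chr11:47470293-47470303, plus strand: tttttTgtttt
SPAG16, antisense, chr2:213407805-213407815, minus strand: ctctcTctctg
TENM1, antisense, chrX:124920930-124920940, plus strand: tttttTccttt
TBC1D32, antisense, chr6:121122128-121122138, plus strand: ttcttTctctc
MLANA, antisense, chr9:5916653-5916663, minus strand: ttcccTttcct
MYCBP2, antisense, chr13:77262079-77262089, plus strand: caaacTctcgt
MYCBP2, sense, chr13:77262077-77262087, minus strand: gagagTttgcg
TXNL4A, antisense, chr18:80012995-80013005, plus strand: gggttTcgtac
TXNL4A, sense, chr18:80013001-80013011, minus strand: tgctaTgtacg

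The listed strand could be checked against RefSeq (GRCh38.p14) where a site of the map, of these loci or of any other gene, fell in a 300-base window around a gene start. All 69 such contexts matched the reference on their listed strand (36 plus, 33 minus), and 0 matched on the other strand. No position of the map was listed on both strands, but this was fixed in advance and checks nothing. Each listed base was a T on its own strand, and so an A on the other. The check covers the printed letters and not how a read was assigned to a strand; the labels name the second-strand kit but do not say whether the libraries keep the strand.

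The share of coding genes with sites on both strands was larger in genes with more sites. It was 8.71% of genes with 2 sites (101 of 1159), 11.4% with 3, 10.6% with 4, 11.8% with 5, 15.0% with 6 and 30.4% with 7 or more (42 of 138, interval 22.9 to 38.8%). A gene with more sites has more chances to meet the rule, and these shares are a description. The rarer strand held 1 site in 145 loci, 2 in 17 loci and 3 in 4 loci. Most loci were therefore members through 1 site: among the 362 coding genes with at least 5 sites, 49 had exactly 1 rarer-strand site and 291 had none. The loci were not longer than other coding genes with several sites, with a median RefSeq length of 61526.5 nt (268 loci) against 80934 nt (2119 genes listed on 1 strand only).

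**Figure D1:**
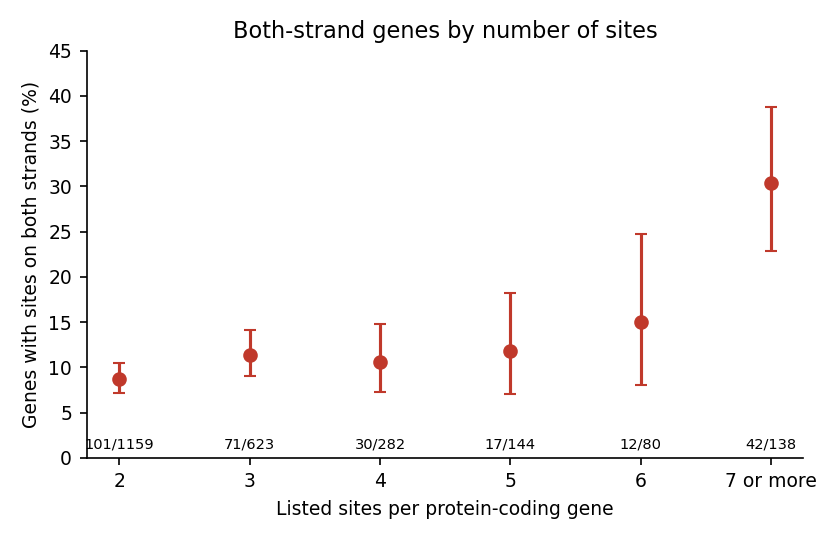
Share of protein-coding genes with sites on both strands (y axis, %) by the number of listed sites of the gene (x axis), with 95% Clopper-Pearson intervals and the counts under each point. The share lay between 8.71% and 15.0% for genes with 2 to 6 sites and was 30.4% for genes with 7 or more.

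The rarer strand was nearly always the antisense strand of the gene. RefSeq gave the gene's strand for 220 of the 273 loci. Of the 137 with a rarer strand, it was antisense in 127 and sense in 10. Over all 220 loci, 261 sites were antisense and 662 sense. Antisense sites were not confined to these loci: of 8715 coding sites with a known gene strand, 508 were antisense, and 247 of these lay in 208 genes outside them, which were listed on the antisense strand alone. The rarer-strand sites were divided evenly between the strands of the genome, with 98 on plus and 93 on minus.

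TENM1, which encodes a teneurin, a large transmembrane protein of neuronal contacts, had the most sites of any locus. It held 42 sense sites, 37 of them intronic, with deletion levels of 5.3% to 36.8% (median 11.75%), and 3 antisense sites in introns. The antisense levels were 25% (6 of 24 reads), 20% (3 of 15) and 40% (6 of 15), all above the sense median and on fewer reads than the sense median of 40. The context of the first was listed at 10 positions of the map on 10 chromosomes, so its reads may be shared with other places. DNAH14, which encodes a dynein heavy chain of cilia, had 21 sense sites (median 9.6%, range 5.5 to 34.6%) and 3 antisense sites at 5.9% (3 of 51 reads), 6.2% (3 of 48) and 11.1% (3 of 27). Its antisense levels lay in the lower part of the sense range.

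TBC1D32, a gene needed for cilia, had 11 sense sites with a median of 13.9% and 3 antisense intronic sites at 8.7% (4 of 46 reads), 9.1% (4 of 44) and 8.1% (3 of 37). MMS22L, whose protein takes part in the repair of stalled replication forks, had 8 sense sites with a median of 9.9% and 3 antisense intronic sites at 8.8%, 19.0% and 14.3% on 34, 21 and 21 reads. RAD51B, a gene of homologous recombination, had 15 sense sites, all intronic, with a median of 20%, and 2 antisense sites at neighbouring positions of 15 reads each, at 20% and 26.7%. The antisense sites of all these genes lay within the range of the sense sites of the same gene, except 1 TENM1 site at 40%.

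The remaining loci with the most sites had 1 rarer site each. SLIT2, which encodes a secreted guidance cue of axons, had 17 sense sites at 5.5% to 50.0% and 1 antisense intronic site at 7.1% (4 of 56 reads). MID1, which encodes a microtubule-bound ubiquitin ligase, had 13 sense sites at 6.2% to 31.8% and 1 antisense intronic site at 9.1% (3 of 33 reads). Both antisense sites fell in the lower part of the range of their gene.

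Levels on the rarer and the main strand were close. The median deletion level was 12.0% on the rarer strand (interval of the median 10.9 to 13.0%, quartiles 8.65 and 18.2%), 11.5% on the main strand (10.7 to 12.2%) and 12.0% in the 2153 coding genes listed with 2 or more sites on 1 strand only. Within loci, the rarer-strand median was the higher in 89 and the lower in 77 of 166, with a median difference of 0.7 percentage points. Antisense medians were the higher in 125 and the lower in 95 of the 220 loci with a known strand.

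The rarer strand was covered by fewer reads. In bulk RNA, fewer transcripts per cell and fewer cells with a transcript cannot be told apart. Median coverage was 29 reads on the rarer strand, 35 on the main strand and 34 in the genes listed on 1 strand, and in 106 of 166 loci the rarer strand had the lower median. Every listed site had at least 3 deletion reads, and 50.8% of rarer-strand sites (97 of 191, interval 43.5 to 58.1%) had exactly that minimum, against 37.0% on the main strand (33.4 to 40.8%) and 36.6% in the genes listed on 1 strand. A listed level at low coverage is bounded from below by this minimum, so the medians are also given at 60 reads or more. There they were 7.95% over 20 rarer sites (6.7 to 11.7%) and 7.0% over 136 main sites (6.6 to 7.6%), with overlapping intervals. In the genes listed on 1 strand the median at that coverage was 6.5% over 1181 sites (6.4 to 6.6%), below the rarer-strand interval. This difference was not tested.

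**Figure D2:**
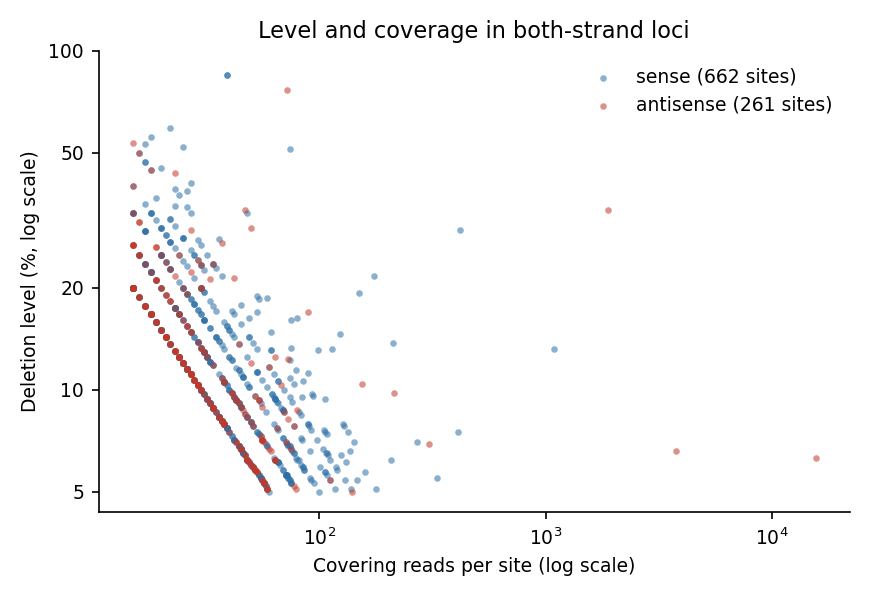
Deletion level (y axis, %, log scale) against covering reads (x axis, log scale) for the antisense (red, 261) and sense (blue, 662) sites of both-strand loci with a known gene strand; each point is 1 site. The lowest diagonal holds the sites with exactly 3 deletion reads, 54.8% of antisense and 36.1% of sense sites.

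A few rarer-strand sites had high levels, and they differed in their coverage. The highest with at least 20 reads was the antisense site of CELF1, an RNA-binding regulator of splicing and mRNA decay, at 76.4% (55 of 72 reads, interval 64.9 to 85.6%), in the region annotated as its 3′UTR. The 2 sense sites of CELF1 were exonic, at 9.4% and 6.2% on 106 and 112 reads, far below it. The CELF1 context shown above was listed at 7 positions of the map on 6 chromosomes, so its reads may be shared with other places. FYN, a Src-family kinase, had an antisense site at 34.0% (16 of 47 reads) and another at 9.4% (3 of 32), and its 6 sense sites lay between 5.3% and 20%.

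SPAG16, an axoneme protein of cilia and sperm tails, had an antisense site at 30.0% (15 of 50 reads) and 2 sense sites at 9.7% and 17.4%, both below it, but its context was listed at 7 positions on 5 chromosomes, with the same limit as for CELF1. TNRC6A, a GW182 protein of miRNA silencing, had an antisense site at 27% (10 of 37 reads), inside the range of its 6 sense sites (10.5 to 30.0%). CNOT10, a subunit of the CCR4-NOT deadenylase complex, was rarer on its sense strand, with a sense site at 25% (6 of 24 reads). DENND1A, which activates a Rab GTPase of endocytosis, had an antisense site at 24.1% of 29 reads, above all 6 of its sense sites (7.1 to 20%).

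The highest levels of single regions rested on few reads. QKI, which binds RNA and regulates splicing, had a minus-strand intronic site at 81.2% (13 of 16 reads) against 13.2%, 14.3% and 26.7% on its main strand. POU3F2, a neural transcription factor, had an antisense site at 50.0% (8 of 16 reads), annotated as intergenic 29180 nt from its nearest sense site. CHAF1A, a subunit of a histone chaperone, had an antisense promoter site at 33.3% (5 of 15 reads), and ZHX2, a transcription factor, a minus-strand promoter site at 18.2% of 22 reads. CEP43, a centrosomal protein, had 2 neighbouring antisense sites at 25% of 16 reads, and DCTN1, the large subunit of dynactin, 2 at 26.7% of 15 reads. In the last 2 loci the neighbours had equal reads and may be 1 deletion listed at 2 positions.

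Introns held a smaller share and exons a larger share of rarer-strand than of main-strand sites, with intervals that did not overlap. Introns held 47.6% of rarer-strand sites (interval 40.4 to 55%) and 69.5% of main-strand sites (65.9 to 72.9%). Exons held 23.6% (17.7 to 30.2%) and 9.84% (7.72 to 12.3%). By RefSeq orientation the exonic share was 26.8% of antisense sites (70 of 261, 21.5 to 32.6%), 10.1% of sense sites (67 of 662) and 25.1% of the antisense sites of other coding genes (62 of 247). No test was made of these differences, since sites of 1 gene share their source. The deposited class was not always that of the assigned gene. The antisense MAML1 site classed as 3′UTR lay 2062 nt upstream of MAML1, inside CANX. The antisense SARS1 site classed as exon lay 49283 nt upstream of SARS1, inside ELAPOR1. Some other antisense sites of both classes also lay upstream of their gene, inside a neighbour.

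The deposited intergenic class held 10.3% of antisense sites (27 of 261, 6.93 to 14.7%) and 1.81% of sense sites (0.940 to 3.14%), with intervals that did not overlap. By the rarer and main strand it held 6.81% (3.67 to 11.4%) and 3.04% (1.89 to 4.61%), with overlapping intervals. Of the antisense sites of other coding genes, it held 17.0% (12.5 to 22.3%). Promoters held 9.42% of rarer-strand sites (5.68 to 14.5%) and 3.76% of main-strand sites (2.47 to 5.46%), and 5′UTRs held 4.71% (2.18 to 8.76%) and 0.868% (0.319 to 1.88%). By orientation, promoters held 8.81% of antisense sites (5.67 to 12.9%) and 3.93% of sense sites (2.58 to 5.70%). For 5′UTRs these were 3.07% (1.33 to 5.95%) and 1.06% (0.426 to 2.17%), and the intervals overlapped in both classes. 3′UTRs held 7.33% of rarer-strand and 10.7% of main-strand sites, with overlapping intervals. Transcription termination regions held 16 of 662 sense sites and 0 of 261 antisense sites, which allows a share of up to 1.15%. They also held 0 of the 247 antisense sites of other coding genes. The 1 rarer-strand site in such a region, in SCAF11, a splicing-related protein, was on the sense strand, at 15.6% of 45 reads.

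**Figure D3:**
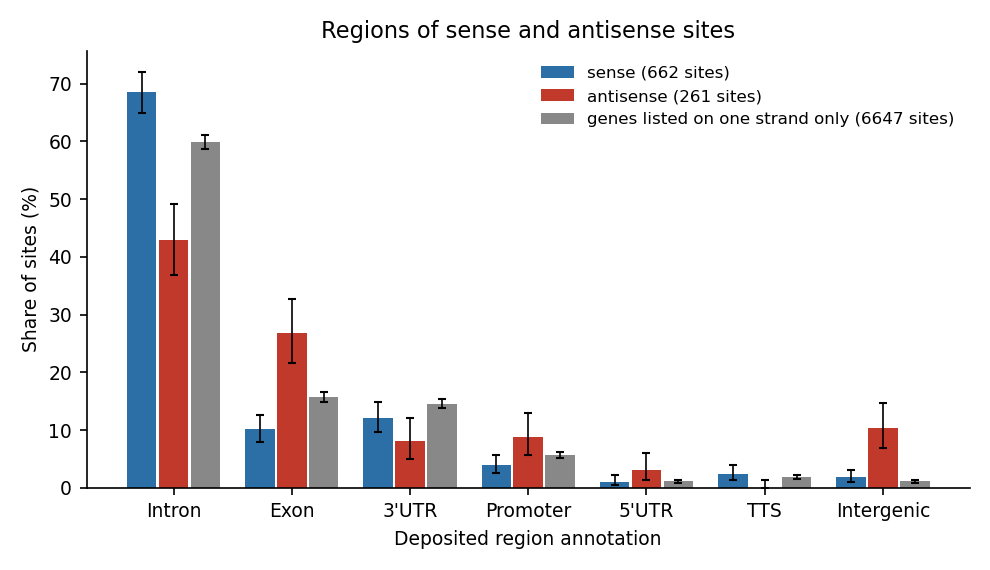
Share of sites (y axis, %) in each deposited region class (x axis) for sense (blue) and antisense (red) sites of both-strand loci and for genes listed on 1 strand (grey), with 95% Clopper-Pearson intervals. Introns held 68.6% of sense and 42.9% of antisense sites, and exons held 10.1% and 26.8%.

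Along the gene, antisense sites lay nearer the 5′ end. Of the antisense sites, 215 (82.4%) were inside the RefSeq gene body, 39 (14.9%, interval 10.8 to 19.9%) upstream of it and 7 downstream. Of the sense sites, 97.6% were inside and 1.81% (0.940 to 3.14%) upstream. Inside the gene, the first 10% of the length held 21.9% of antisense sites (16.5 to 28.0%) and 13.5% of sense sites (10.9 to 16.3%), and the last 10% held 5.12% (2.58 to 8.97%) and 14.9% (12.2 to 17.8%). The median position was 34.0% of the length for antisense and 46.0% for sense sites. In other coding genes it was 44.6% and 55.9%, and 23.5% of their antisense sites (18.3 to 29.3%) lay upstream.

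Few antisense sites were close to a start. The first 1000 nt of the gene held 15 antisense sites (5.75%, 3.25 to 9.30%) and 12 sense sites (1.81%), and 4 antisense sites lay within 1000 nt upstream of the gene. Of the antisense sites of other coding genes, 7.29% (4.38 to 11.3%) were in the first 1000 nt. The median upstream distance of the 39 upstream antisense sites of both-strand loci was 12823 nt. The nearest were CNOT6, a deadenylase subunit, with a site 261 nt upstream at 12.3% (9 of 73 reads), and FOXC1, a forkhead transcription factor, with a site 801 nt upstream at 22.2% (6 of 27 reads). In the windows around single RefSeq starts, antisense sites lay 59 nt upstream of a start of ACIN1, 188 nt upstream for SRPK2, 179 nt upstream for UBE2D3, and 2 nt and 19 nt downstream for NFKB1 and EIF4E2. Each of these 5 had 3 deletion reads.

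**Figure D4:**
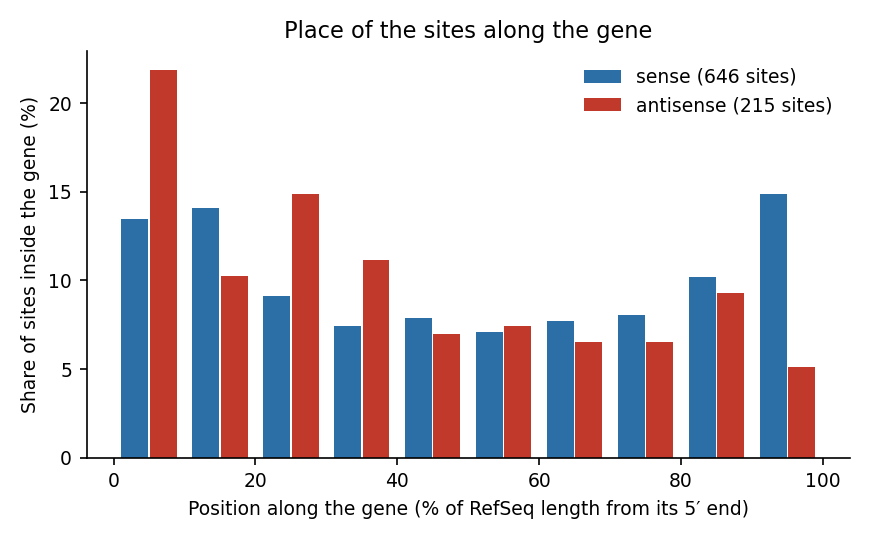
Place of sites along the gene (x axis, % of the RefSeq length from the 5′ end, in bins of 10) as a share of the sites inside the gene (y axis, %), for 646 sense (blue) and 215 antisense (red) sites. The first bin held 21.9% of antisense and 13.5% of sense sites, and the last bin 5.12% and 14.9%.

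The sequence around the sites differed between the strands. Of the 10 flanking bases, 65.9% were pyrimidines at rarer-strand sites (SD 19.0 points over 191 sites) and 54.3% at main-strand sites (SD 21.4 points), the same as in the genes listed on 1 strand. At least 8 of 10 were pyrimidines at 34.6% of rarer-strand sites (interval 27.8 to 41.8%) and 16.5% of main-strand sites (13.8 to 19.5%). Antisense sites of other coding genes stood near the former, at 30.0% (24.3 to 36.1%). Both strands of the genome showed it, with 35.7% of plus-strand and 33.3% of minus-strand rarer sites.

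The bases behind the difference varied with the region. Over all sites, cytidine made up 28.2% of the flanks of antisense sites and 18.9% of sense sites, and uridine 36.0% and 34.9%. Introns showed the same pattern, with cytidine at 27.8% and 18.3% and uridine at 37.5% and 36.5%. In exons the larger difference was in uridine, at 36.3% and 22.5%, with cytidine at 28.0% and 22.1%. In 3′UTRs it was also in uridine, at 41.9% and 35.4%, with cytidine at 21.9% and 20%, over 21 antisense and 80 sense sites. Some antisense sites of the exon and 3′UTR classes lay in a neighbour gene, as given above. Pyrimidines together made up 64.3% of the flanks of 70 exonic antisense sites and 44.6% of those of 67 exonic sense sites, and 65.3% and 54.8% in introns.

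The share with at least 8 pyrimidines is given by read support as well. At sites with exactly 3 deletion reads it was 29.4% of antisense (22.1 to 37.6%) and 16.3% of sense sites (11.9 to 21.6%), and with 5 or more 37.5% (24.9 to 51.5%) and 15.8% (11.7 to 20.6%). At a coverage of at least 60 reads it was 21.4% of 28 antisense (8.30 to 41.0%) and 13.6% of 140 sense sites (8.37 to 20.4%), and these intervals overlapped.

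By position, the pyrimidine profile ran in opposite ways for the strands of the genome, for sense and antisense sites alike. Plus-strand antisense sites had a pyrimidine just 5′ of the listed uridine in 79.2% and just 3′ of it in 50.0%, and minus-strand antisense sites in 51.9% and 81.7%. For sense sites these were 74.9% and 36.5% on plus, and 49.0% and 65.5% on minus. Uridine alone stood just 5′ in 63.8% and just 3′ in 7.69% of plus-strand antisense sites, and in 7.63% and 64.1% on minus. For sense sites it was 60.4% and 8.98% on plus, and 5.31% and 54.9% on minus. Within a run of uridines the listed uridine need not be the modified one. How deletions in such runs were placed was not tested, so this contrast cannot be read as a property of the genome strands. On each strand the antisense share was the higher at all 10 flanking positions, though many of the intervals overlapped.

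**Figure D5:**
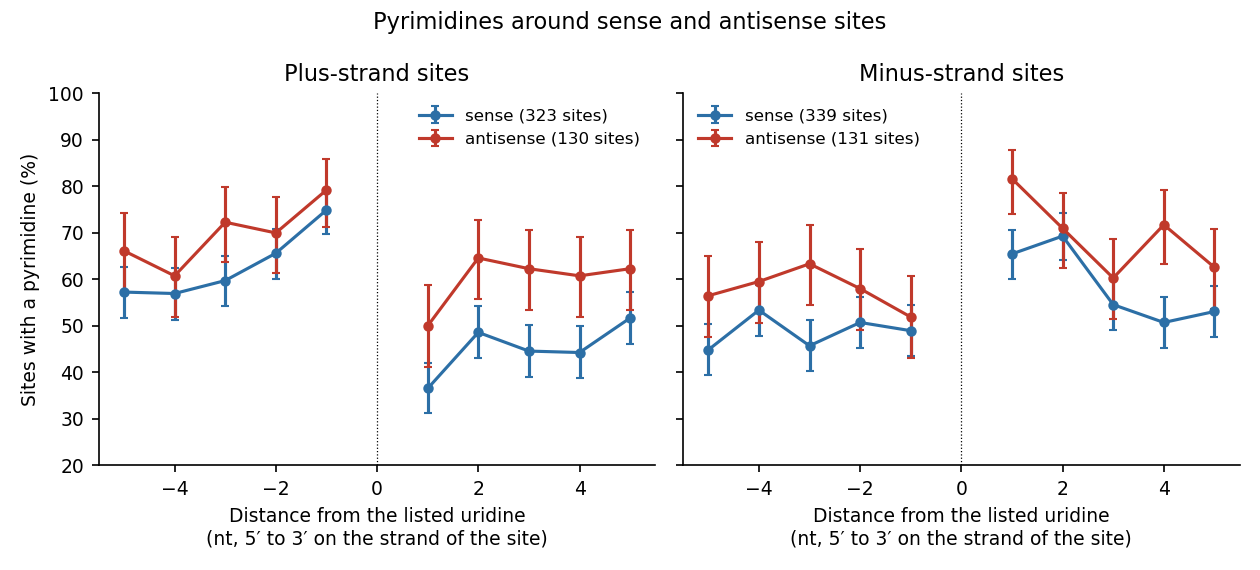
Share of sites with a pyrimidine (y axis, %) at each position around the listed uridine (x axis, nt, 5′ to 3′ on the strand of the site) for sense (blue) and antisense (red) sites of both-strand loci, with plus-strand sites on the left, minus-strand sites on the right and 95% Clopper-Pearson intervals. Plus-strand profiles fell across the listed uridine (79.2% to 50.0% for antisense) and minus-strand profiles rose across it (51.9% to 81.7%). Within a run of uridines the listed uridine need not be the modified one.

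Motifs of known synthases were at few rarer-strand sites, with intervals that overlapped those of the main strand. The PUS7 motif UNUAR (R is A or G), searched in the 11 bases on the strand of the site with any uridine of a run taken as the target, was at 10 of 191 rarer-strand sites (5.24%, 2.54 to 9.42%), 63 of 691 main-strand sites (9.12%) and 7.39% of all coding sites. The PUS1 motif HRUAR (H is A, C or U), which shares some letters with UNUAR, was at 6 (3.14%), 24 (3.47%) and 4.06%. The TRUB1 motif GUUCNA was at 2 (1.05%), 4 (0.579%) and 1.24%. The 40% antisense site of TENM1 held the first of these, and the 50.0% site of POU3F2 the second.
TENM1, antisense, chrX:125134483-125134493, plus strand: ttctcTagtct
POU3F2, antisense, chr6:98866150-98866160, minus strand: aacaaTaatac

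Sites of the 2 strands were usually far apart. The nearest opposite-strand site of the same gene lay at a median of 8516 nt from a rarer-strand site (quartiles 2461 and 22627 nt, range 2 to 719043 nt). It was within 1000 nt for 31 of 191 (16.2%) and within 5000 nt for 66. Rarer-strand and tied sites gave 49 opposite-strand pairs within 1000 nt, in 46 genes.

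The levels of the 2 sites of a pair were compared by Fisher's exact test on reads with and without the deletion (two-sided, Benjamini-Hochberg over the 49). Such a test compares the reads of 2 positions, not samples. The difference passed an adjusted p of 0.05 in 4 pairs, or 8.16%, with 7 at an unadjusted p under 0.05, and the intervals of the 2 sites overlapped in 45 pairs. Among same-strand neighbours of coding genes within 1000 nt, 10 of 1114 (0.898%) passed, but 593 of those pairs were adjacent bases. Leaving these out, 10 of 521 (1.92%) passed. That background was adjusted over more pairs, so the adjusted shares are not directly comparable. At an unadjusted Fisher's exact p under 0.05 the counts were 7 of 49 opposite-strand and 48 of 521 same-strand pairs.

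In PID1, an adaptor protein of receptor signalling, the plus-strand site had 59.5% (47 of 79) and a minus-strand site 92 nt away 28.8% (72 of 250), with an adjusted Fisher's exact p of 4.28e-05. In NOTCH2, a Notch receptor, the antisense site had 9.3% (4 of 43) and a sense site 146 nt away 59.1% (13 of 22), with an adjusted Fisher's exact p of 0.000573. The context of that sense site was also listed for NOTCH2NLC, a near-identical copy, and for NBPF26, so its reads are uncertain. In TXNL4A, a spliceosomal protein, the antisense site had 33.9% (642 of 1893) and the sense site 6 nt away 19.3% (29 of 150), with an adjusted Fisher's exact p of 0.00237. The context of that antisense site was listed at 5 positions of the map, so its reads are uncertain as well.

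The other closest pairs did not pass the test, which does not show that their levels were alike. In MYCBP2, a large ubiquitin ligase of neurons, the antisense site at 20% (3 of 15 reads) and the sense site at 7.6% (8 of 105) were 2 nt apart, and their windows were complementary over 9 of 9 shared bases. CBX6, a Polycomb protein, had 5.0% of 140 reads and 14.6% of 123 at 18 nt in its 3′UTR, with an adjusted Fisher's exact p of 0.0863. DNAH14 had 6.4% and 5.9% at 29 nt, and RAB28, a small GTPase of cilia, 10.3% and 9.4% at 32 nt. CKS2, a partner of cyclin-dependent kinases, had 11.5% and 13.6% at 62 nt, and CAND1, a regulator of cullin ligases, 15.4% and 14.3% at 69 nt. Both CKS2 sites were annotated as intergenic and lay upstream of the gene, the antisense one by 56923 nt. In these last 4 pairs the levels differed by less than their counting intervals.

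As at coding sites in general, most antisense sites fell in no other RefSeq gene. The share in none was 83.1% (217 of 261, interval 78.0 to 87.5%), against 87.6% of all coding sites, 90.5% of sense sites in these loci and 73.7% of antisense sites of other genes. Of the rest, 19 lay in a gene on the strand opposite to the site only, 7 in a gene of unknown strand, 3 in a small RNA gene and 15 (5.75%, 3.25 to 9.30%) in another gene on the site's own strand. Sense sites fell in another gene on their own strand in 3.02% (1.85 to 4.63%), an overlapping interval. The 15 included named antisense RNAs, with the NFKB1 site (8.8%, 3 of 34 reads) in NFKB1-AS1 and the HOXA3 site (11.7%, 7 of 60 reads) in HOXA-AS3. They also included coding neighbours, with SIAH1 sites in LONP2 (21.1% of 19 reads), a VTI1B site in GPHN (31.2% of 16 reads), an ERH site in GALNT16 (6.0% of 50 reads) and a FAM200B site in FBXL5 (20% of 30 reads).

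Some sites lay in small RNA genes or had the letters of such genes, and their sequences are shown because they recur there. Of the sites of both-strand loci, 7 lay in a small RNA gene by RefSeq position. The sites of CTNNA3, HMGN4 (3 sites), KNL1 and NCOA7 were in tRNA genes, and each held GUUCNA, the T-loop motif that TRUB1 uses in tRNA, while a TULP4 site was in SNORA116, an H/ACA snoRNA gene. Their levels were 6.9% (21 of 306 reads) in TRS-TGA1-1 upstream of CTNNA3, 8.5% (42 of 494) in TRS-GCT4-2 at KNL1, and 10.4%, 13.1% and 13.7% in 3 tRNA genes around HMGN4, which were 3 of the 4 sites of that tied locus. NCOA7 had 12.0% (6 of 50) in TRE-CTC1-7, and TULP4 13.3% (4 of 30).
CTNNA3, TRS-TGA1-1, chr10:67764561-67764571, plus strand: caggtTcgaac
KNL1, TRS-GCT4-2, chr15:40593839-40593849, minus strand: gtgggTtcgaa
HMGN4, TRT-AGT2-1, chr6:26532931-26532941, minus strand: ctgggTtcgaa
NCOA7, TRE-CTC1-7, chr6:125780261-125780271, minus strand: ccgggTtcgat
ADGRB3, U3 context, chr6:68665193-68665203, minus strand: agaagTttctc
ACAP2, U6 context, chr3:195459450-195459460, plus strand: aaaatTggaac

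The site with the most deletion reads on a rarer strand was the antisense site of ADGRB3, an adhesion receptor of neurons, at 6.3% of 15591 reads. Its 2 sense sites, at neighbouring positions, had 84.6% of 39 reads. The context of the antisense site was listed at 7 positions, 3 of them named U3, the snoRNA of rRNA processing, or its SNORD3 copies, with 28 to 15866 reads. The same letters marked an antisense site of DIP2B, at 10.7% of 28 reads. A context 1 base further along lay on the antisense strand of CNOT10, at 6.6% of 3773 reads. The antisense site of ACAP2 (9.8% of 214 reads) had a context listed 22 times, 19 of them in genes named as the spliceosomal U6 RNA or its copies. The antisense context of TXNL4A was listed 5 times with 46 to 28921 reads. The level at such a site may hold reads of the other copies, and how the reads were placed was not tested.

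Repeated contexts were not the rule. On the rarer strand, 15.2% of sites (10.4 to 21.1%) had a context listed more than once in the map, against 9.41% on the main strand (7.33 to 11.8%). By orientation it was 16.5% of antisense (12.2 to 21.5%) and 9.06% of sense sites (6.99 to 11.5%), with intervals that did not overlap. Of the antisense sites of other coding genes it was 11.3% (7.67 to 16.0%). Only listed sites were compared, so these shares do not count all sites in repeated sequence. EMB, which encodes a membrane glycoprotein, had a rarer-strand site annotated as intergenic at 7.6% of 590 reads, and its context was also listed for another gene, ARSK. The 6 main-strand sites assigned to EMB had 9.0% to 35.3%, all above it. They spanned 759860 nt against a RefSeq gene length of 47154 nt, so some lay outside the gene.

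In 10 loci the antisense strand was the main one, with 22 antisense and 10 sense sites. They were AMY2B, CKS2, CNOT10, CPSF2, MLANA, MRFAP1, NCAPG, SCAF11, SUSD5 and TEX10, and none had more than 3 antisense sites. In AMY2B, MLANA, SCAF11 and SUSD5 the 2 antisense sites lay at neighbouring positions and may be 1 deletion listed at 2 positions. Counted as 1, they would equal the single sense site of the locus. All CKS2 sites and the antisense sites of MRFAP1 lay upstream of the gene, and all MLANA sites lay downstream of it. In MLANA, a melanosome protein, the antisense sites lay at 2 neighbouring positions, at 44.4% (8 of 18 reads) and 53.3% (8 of 15). Both were inside the body of BRD10 and on the strand of BRD10. The single sense site of MLANA had 5.6% of 54 reads. In NCAPG, a condensin subunit, the antisense sites had 12.0% and 11.8% and the sense site 10.3%. In AMY2B, an amylase of the pancreas with near-identical copies, the antisense sites had 5.7% and 5.9% and the sense site 10.9%, and its reads are uncertain for that reason.

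The tied loci were mostly pairs of single sites: 101 had 1 site on each strand, 5 had 2 and 1 had 4. The locus with 4 on each strand was RIF1, which regulates replication timing and the choice of DNA break repair. Its 4 antisense sites were exonic and its 4 sense sites lay in the 3′UTR class or in introns, with no overlap in position. The antisense levels were 20% (3 of 15 reads), 20% (3 of 15), 7.0% (4 of 57) and 14.3% (3 of 21), and the sense levels 7.8%, 6.7%, 8.9% and 20% on 90, 45, 45 and 15 reads. The ranges overlapped, and the median coverage was 18 reads for the antisense and 45 for the sense sites.

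The other named tied loci had 2 sites on each strand. NAA50, an N-terminal acetyltransferase, had 2 neighbouring antisense sites at 7.9% of 38 reads and sense sites at 5.6% and 22.6%. The gene ENSG00000241489 had neighbouring plus-strand sites at 5.7% and 5.9% and minus-strand sites at 5.2% and 11.9%. The tied loci as a whole had a median level of 11.8% (10.3 to 13.0%), close to the loci with a rarer strand.

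Some gene families held both-strand loci. Of coding genes with 2 or more sites, 11.3% were both-strand loci, and the family counts were 4 of 67 ZNF zinc finger genes, 2 of 40 SLC carriers, 2 of 11 DDX and DHX helicases (DDX17 and DDX21), 1 of 18 KIF, DYN, DNAH and MYO motor genes (DNAH14) and 4 of 33 USP and UBE ubiquitin genes. They were 3 of 13 COX, NDUF and ATP5 respiratory chain genes (NDUFA10, NDUFA3 and NDUFB9) and 0 of 4 RPL and RPS ribosomal protein genes. The counts are small, and no list was tested.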

How the data were processed

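PRAISE-seq sites of HEK293T were taken from 1 deposited table with no column per library; the libraries behind it are not named. Per the file headers, the authors deposited a fraction (deletion level, printed as a percentage), a read count (coverage) and, per site, a p-value and an FDR. The deposited p-value equals 0 at 1096 of 1112 member sites. The build is hg38, per the submitters' processing notes; the aligner and caller were not given in the sources used here. Level times coverage was whole within 0.0005 of the level at all 13398 sites and gave the deletion reads, which are approximate at the 4 member sites of at least 1000 reads. The least coverage was 15 reads and the fewest deletion reads 3.

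Genes were taken by identifier, and gene strand, start and length from RefSeq (GRCh38.p14) by symbol. Shares have 95% Clopper-Pearson intervals, medians order-statistic intervals, and a 0 an upper limit of 3 counts. Only neighbour pairs were tested (Fisher's exact test). Named genes are those with the most rarer-strand, total or tied sites, the highest levels (at least 20 reads, or per region), the most deletion reads and the closest pairs; other named genes were chosen after their values were seen. Some genes that the rule names are not reported here. Members and lists were chosen with earlier results of these data known. The rule and the pair test were tested on simulated data. Its coverage and level differences were larger than at most sites here, and it had no minimum of deletion reads. It therefore does not cover the pair test at low coverage. Alternatives were coverage, deletion reads, repeated contexts, small RNA genes, ties and pair distance. Python 3.11.15, pandas 2.3.3, numpy 2.4.6, scipy 1.17.1 and matplotlib 3.10.9 were used.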

Additional observations from a re-analysis of the deposited data

How the results depend on the processing

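No paired analysis was possible because the table has no column per library and so carries no replicate number. Counts depended on the read minimum. At a coverage of at least 60 the both-strand loci fell from 273 to 14, and the 5 rarer-strand sites left had a median level of 10.4%, an intron share of 20%, an exon share of 0%, 20% with at least 8 pyrimidines and a median distance of 29188 nt to the opposite strand. At 4 deletion reads or more, 104 loci were left, with a median distance of 14252 nt (57 rarer-strand sites) in place of 8516 nt, while the intron share (52.6%), the exon share (22.8%) and the pyrimidine share (31.6%) stayed inside the intervals given. With at least 2 sites on each strand, 27 loci were left. Fewer sites pass each of these settings by construction.

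Leaving out repeated contexts (227 loci) or sites in small RNA genes (268 loci), and adding ties, left every recomputed value inside its interval or within 1.5 times its count. So did 3 alternatives chosen after seeing the data: antisense by RefSeq in place of the rarer strand, neighbouring positions merged (273 loci) and no intergenic sites (246 loci). Another gene was within 1000 nt of 15.7% of rarer-strand sites, and at 12.0% of them. Within 100 nt, 4 of 9 opposite-strand pairs differed, with CBX6 in place of NOTCH2, and within 5000 nt 4 of 104.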
